A study of Mus musculus with 58 samples.

Results

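BMAL1 peaks that were listed in mouse liver but not in NIH3T3 fibroblasts, and that lay at gene promoters, are described here. A liver peak counted as liver-only when no entry with the same chromosome, start and end stood in the NIH3T3 BMAL1 list, and as a promoter peak when the authors' signed distance to the start site of its gene was at most 1000 bp in either direction. The NIH3T3 BMAL1 list held 463 entries, so at most that many liver peaks could also stand in it. Of 1254 liver BMAL1 peaks, 340 (27.1%) met both conditions, and these 340 were assigned to 309 genes. They were set against 220 promoter peaks that both BMAL1 lists held (called common here, 156 genes) and against 651 liver-only peaks beyond 1 kb of a start site. The last class, 43 common peaks beyond 1 kb, was not used for comparison.

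The study compared circadian binding and expression in mouse liver and in NIH3T3 cells, an embryonic mouse fibroblast line. For BMAL1 in liver the authors reprocessed libraries of an earlier study, collected at zeitgeber time 6, that is 6 h after lights on. The labels give no strain or age for those mice. The liver CLOCK list came from 1 sample labelled as pooled, from C57/BL6 mice aged 12 to 14 weeks kept in 12 h of light and 12 h of darkness with free access to food, with no time of day given. The NIH3T3 cells had been synchronised with 100 nM dexamethasone, a glucocorticoid that sets the phase of cultured cells, and the label of the BMAL1 list, tied to 7 libraries from 12 to 38 h after dexamethasone, names 20 h alone. The NIH3T3 CLOCK list belonged to 6 libraries from 18 to 38 h. The labels name no mutant group and no NIH3T3 cells without dexamethasone. They give no such treatment for liver, so tissue and treatment cannot be told apart. The lists hold binding positions, so the tissue label could not be checked against expressed markers, and they give no height, score or value per library. Depth is therefore unknown, and a peak missing from the NIH3T3 list is one not listed there, which is not a measurement of absent binding.

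BMAL1 and CLOCK are basic helix-loop-helix proteins that bind DNA as a heterodimer, preferentially at the E-box, whose canonical form is CACGTG. The heterodimer drives its own repressors, the period and cryptochrome genes, and a wide set of output genes, and in liver these outputs include enzymes of lipid, glucose and xenobiotic metabolism. NIH3T3 cells have a clock of their own but lack hepatocyte functions.

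The promoters of 8 genes with a liver-only promoter peak are printed to show where the E-box letters stand beside the listed peak. Plin2, Pfkfb3, Rpp38, Ldha and Ppp1r3c are the 5 genes with CACGTG among 27 that had a CLOCK peak nearby or stood in the clock, lipid, glucose or amino acid and nucleotide lists, and 23 of these 27 had a promoter window. Trappc10, Max and Slc25a33 were added after their values were seen, as list genes with the match within 10 bp of the peak. Sequences are RefSeq promoter windows of GRCm38.p6, 250 bases before to 50 after the start, 5′ to 3′ along the gene, with CACGTG in capitals. All but Ldha lie on the minus strand.
Plin2, chr4:86670010-86670309: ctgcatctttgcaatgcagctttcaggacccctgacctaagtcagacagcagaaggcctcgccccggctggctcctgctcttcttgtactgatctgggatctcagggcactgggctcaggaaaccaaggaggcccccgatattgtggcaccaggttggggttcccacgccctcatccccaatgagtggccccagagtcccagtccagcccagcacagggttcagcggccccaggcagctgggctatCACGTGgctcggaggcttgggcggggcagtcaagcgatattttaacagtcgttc
Pfkfb3, chr2:11502041-11502340: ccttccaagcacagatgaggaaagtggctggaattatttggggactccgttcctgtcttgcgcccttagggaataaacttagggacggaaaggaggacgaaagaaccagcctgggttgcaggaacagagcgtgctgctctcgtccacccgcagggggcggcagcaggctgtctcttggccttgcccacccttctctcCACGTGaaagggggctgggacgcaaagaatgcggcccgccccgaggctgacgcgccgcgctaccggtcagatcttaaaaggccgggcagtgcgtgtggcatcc
Rpp38, chr2:3332579-3332878: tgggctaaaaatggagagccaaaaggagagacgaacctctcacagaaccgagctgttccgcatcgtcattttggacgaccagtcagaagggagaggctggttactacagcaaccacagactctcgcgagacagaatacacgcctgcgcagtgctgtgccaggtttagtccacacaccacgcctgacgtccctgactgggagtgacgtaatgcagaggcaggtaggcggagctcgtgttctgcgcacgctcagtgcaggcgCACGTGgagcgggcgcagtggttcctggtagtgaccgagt
Ldha, chr7:46845554-46845853, plus strand: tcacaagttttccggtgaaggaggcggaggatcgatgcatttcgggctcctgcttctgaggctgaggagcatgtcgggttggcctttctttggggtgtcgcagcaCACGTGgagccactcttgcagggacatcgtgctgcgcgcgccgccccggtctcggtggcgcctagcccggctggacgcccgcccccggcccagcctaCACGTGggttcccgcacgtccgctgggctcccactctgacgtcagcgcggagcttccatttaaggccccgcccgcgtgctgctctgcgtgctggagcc
Ppp1r3c, chr19:36736555-36736854: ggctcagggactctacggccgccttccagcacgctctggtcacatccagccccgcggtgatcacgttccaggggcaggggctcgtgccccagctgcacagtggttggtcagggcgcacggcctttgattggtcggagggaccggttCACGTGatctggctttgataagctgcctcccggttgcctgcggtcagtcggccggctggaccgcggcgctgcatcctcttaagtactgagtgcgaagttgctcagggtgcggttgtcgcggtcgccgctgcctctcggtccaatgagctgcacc
Trappc10, chr10:78244596-78244895: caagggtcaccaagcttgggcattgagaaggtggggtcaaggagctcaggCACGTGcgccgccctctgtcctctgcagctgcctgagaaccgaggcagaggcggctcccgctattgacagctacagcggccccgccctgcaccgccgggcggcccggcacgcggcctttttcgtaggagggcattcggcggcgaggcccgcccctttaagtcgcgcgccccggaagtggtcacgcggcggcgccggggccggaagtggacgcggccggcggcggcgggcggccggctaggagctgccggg
Max, chr12:76962199-76962498: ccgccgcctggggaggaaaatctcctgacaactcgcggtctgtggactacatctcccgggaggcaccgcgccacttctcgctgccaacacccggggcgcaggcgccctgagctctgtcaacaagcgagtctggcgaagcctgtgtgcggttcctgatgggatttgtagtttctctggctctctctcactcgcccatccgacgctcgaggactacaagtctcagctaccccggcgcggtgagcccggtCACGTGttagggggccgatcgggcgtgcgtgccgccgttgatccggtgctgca
Slc25a33, chr4:149774218-149774517: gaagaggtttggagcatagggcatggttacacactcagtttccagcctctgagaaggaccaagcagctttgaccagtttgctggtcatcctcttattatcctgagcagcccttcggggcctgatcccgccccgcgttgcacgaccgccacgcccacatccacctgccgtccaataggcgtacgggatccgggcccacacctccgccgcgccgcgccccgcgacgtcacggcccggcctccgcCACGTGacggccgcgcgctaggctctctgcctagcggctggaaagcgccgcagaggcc

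Plin2 encodes a coat protein of lipid droplets. Its liver-only peak, chr4:86315943-86315992 in mm9, the build of the lists, lay at −3 bp, and the E-box of its window lay at −1 bp (start base at 0, position taken at the fourth base of the match). Max, the partner of MYC and itself an E-box binding protein, had its peak at −9 bp and its E-box at 0 bp. Slc25a33, a mitochondrial pyrimidine nucleotide carrier, had its peak at −13 bp and its E-box at −5 bp. Trappc10, a subunit of a tethering complex of the Golgi, had peaks at −89 and −197 bp, and its E-box also lay at −197 bp. In these 4 genes, each with 1 RefSeq window, the match lay inside the 50 bp interval of a listed peak. For Max, Slc25a33 and Trappc10 that follows from how they were chosen and is no separate result.

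Ldha, lactate dehydrogenase A, had 2 E-boxes, at −142 and −45 bp, and its single liver-only peak was 97 bp wide. Taken from its centre at −94 bp, that peak reached −142.5 bp at one end and −45.5 bp at the other, so its ends fell on the E-boxes. Pfkfb3, which makes and breaks down an activator of phosphofructokinase, had its peak at −26 bp, reaching −51 bp, and its E-box at −50 bp. Both Ldha and Pfkfb3 have 2 windows in the table, and the first with a match is shown. Rpp38, a protein of RNase P, had a peak at 39 bp that began at 14 bp, next to its E-box at 13 bp. Ppp1r3c, which targets a phosphatase to glycogen, had its peak at −132 bp, reaching to −107 bp, and its E-box at −101 bp. These placements set the authors' distance beside the RefSeq start, on the assumption that both use the same start site.

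The liver-only promoter peaks crowded at the start site. Their median absolute distance was 149 bp (quartiles 49.25 and 387.25 bp), against 117 bp (33.5 and 279.25 bp) for common promoter peaks. Within 50 bp lay 86 liver-only peaks (25.3%) and 67 common peaks (30.5%), and within 200 bp lay 193 (56.8%) and 147 (66.8%). Within 500 bp lay 279 liver-only peaks (82.1%) and 204 common peaks (92.7%), so more of the liver-only class lay in the outer part of the window. The 10 liver-only peaks nearest to a start site belonged to Fam50a, Gm11491 and Rab3il1 at 0 bp, Lcp1 at −1 bp, D17Wsu104e and Wdr4 at 2 bp, Txndc16 at −2 bp, Bsg and Strada at 3 bp, and Plin2 at −3 bp. Lcp1 is an actin-bundling protein of white blood cells, and Bsg is the chaperone of lactate transporters at the cell surface.

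The classes differed in the side of the start site. Upstream of the start lay 198 liver-only peaks (58.8%, 95% Clopper-Pearson interval 53.3 to 64.1), 139 lay downstream and 3 exactly on it, whereas 161 common promoter peaks lay upstream (73.9%, 67.5 to 79.6), 57 downstream and 2 on it. The odds of an upstream position were 0.505 times those of common peaks (95% interval 0.341 to 0.742, two-sided Fisher exact test, p = 2.7475e-04). Over both classes 64.7% of the 555 peaks off the start base were upstream. When peaks of a class closer than 1 kb were joined into a locus, placed at its peak nearest to the start, the odds ratio was 0.694 and the call was lost (Fisher exact p = 0.0852), with 184 of 308 liver-only loci and 107 of 157 common loci upstream. Liver-only peaks formed 311 loci and common ones 159, so the peaks of a promoter are not independent, and intervals and tests over peaks cover counting error alone. Negative distances were read as upstream: under that reading 71 of 121 pairs of peaks of the same gene gave the same start site within 2 bp, and under the opposite reading 0 did.

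**Figure D1:**
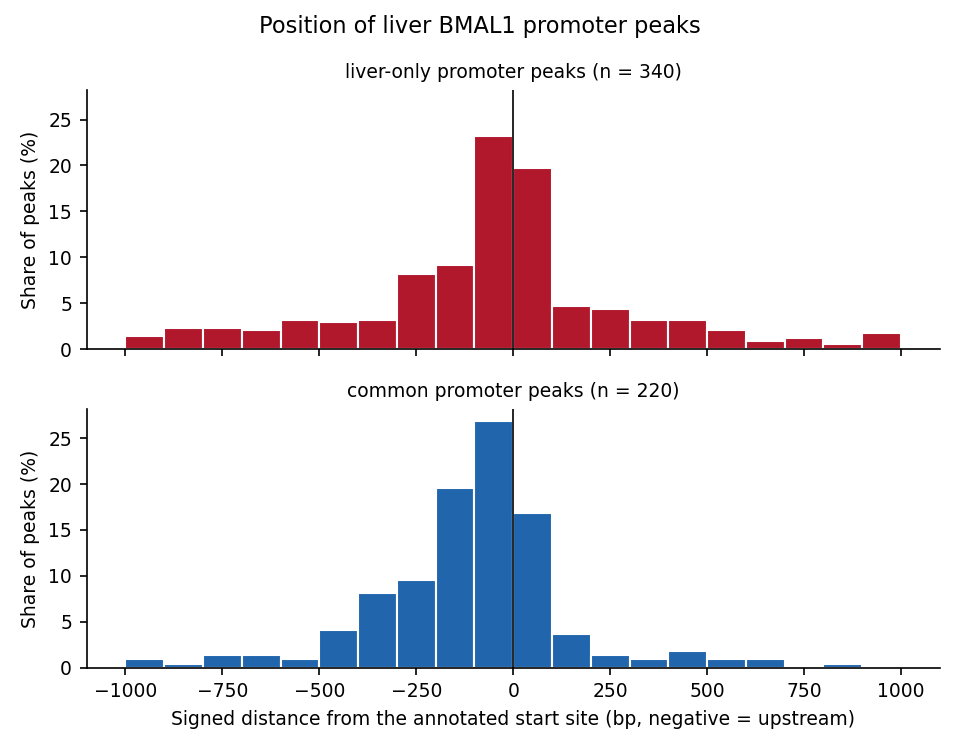
Share of peaks (%) in bins of 100 bp by signed distance from the annotated start site, for 340 liver-only (upper) and 220 common (lower) promoter peaks. The liver-only bins on either side of the start hold 79 and 67 peaks, and the common peaks lean to the upstream side.

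Most liver-only promoter peaks had the fixed width of the list. Of them, 288 (84.7%) were exactly 50 bp wide, 51 were wider and 1 was narrower, with a range of 45 to 99 bp. Among common promoter peaks 106 (48.2%) were 50 bp wide and 111 were wider, and among liver-only peaks beyond 1 kb 98.3% were 50 bp wide. How the authors set widths is not stated in the labels.

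The cut at 1000 bp fell in a thin stretch of the list. Just inside it lay the peaks of Efna3 at 994 bp, Wee1 at −983 bp, Dazap1 at 972 bp and Srrm4 at 947 bp. Just outside lay those of Cyp17a1 at 1002 bp, Inmt at −1057 bp, Gm12992 at −1058 bp, 2610307P16Rik at 1065 bp and Gm13065 at 1069 bp. Cyp17a1, a steroid hydroxylase, missed the class by 2 bp.

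Genes were described by role, with lists of pathway members, as the share of a list's genes with any liver BMAL1 peak that had a liver-only promoter peak. Over all genes that share was 31.4% (309 of 985). The share with a common promoter peak, given beside it, was 15.8% over all genes (156 of 985), so the counts of the classes have different backgrounds, and each is to be read against its own. Such a share says where peaks were listed, not that a gene's expression followed. In all, 81 of the 309 genes stood in at least 1 list.

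The core clock was nearly empty of such peaks. Of 12 core clock genes with a liver peak 1 had a liver-only promoter peak, and 9 had a common promoter peak. Of 7 clock output genes 4 had one and 3 had a common promoter peak. Nampt, the rate-limiting enzyme of NAD salvage, had liver-only peaks at −150 and −235 bp. Hlf, a factor that binds D-box elements, had one at −598 bp. Por, the electron donor of cytochrome P450 enzymes, had one at −364 bp and one at 407 bp whose centres lay 13680 bp apart, so they belong to different start sites. Wee1, a kinase that holds back mitosis, had its liver-only peak at −983 bp.

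Genes of lipid metabolism with a liver-only promoter peak were 8 of 22, and 4 of the 22 had a common promoter peak, both near the shares over all genes. Nearest to the start were Plin2, already described, Elovl6 at 7 bp, an elongase of long-chain fatty acids, and Pnpla2 at −62 bp, the lipase that opens triglyceride breakdown. Downstream lay Mogat1 at 236 bp, which acylates monoacylglycerol, and Slc27a2 at 553 bp, which takes up and activates fatty acids. Upstream lay Lrp1 at −674 bp, a receptor for lipoprotein remnants, and Ppara at −813 bp, the nuclear receptor that drives fatty acid oxidation.

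Genes of glucose and glycogen metabolism were 7 of 18, and 2 of 18 had a common promoter peak, so both counts stood near the shares over all genes. Beside Pfkfb3, Ldha and Ppp1r3c they were Gbe1 at −53 bp, the glycogen branching enzyme, Crtc1 at −180 bp, a coactivator of CREB, and Pdk1 at 313 bp, which inhibits pyruvate dehydrogenase. Pfkl, the liver subunit of phosphofructokinase, was the only gene with 3 liver-only promoter peaks, at 73, 372 and 454 bp, all downstream of its start.

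Xenobiotic, redox and bile export genes were 7 of 12, and 1 of 12 had a common promoter peak. Abcc2, the canalicular exporter of conjugated bilirubin, had its peak at 18 bp. Fech, which inserts iron into protoporphyrin to form haem, had one at −173 bp. The glutathione transferases Gstm1 and Gstt2 had theirs at 236 and −681 bp. Adh5, which oxidises the glutathione adduct of formaldehyde, had one at 575 bp, and Nfe2l2, the main factor of the antioxidant response, one at 703 bp. The seventh gene was Por. None of the 3 cytochrome P450 genes with a liver peak had one within 1000 bp.

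Genes of amino acid, nucleotide and one-carbon metabolism were 6 of 17 (35.3%), near the share over all genes, and 6 of 17 had a common promoter peak, above the 15.8% over all genes. Mtrr, which reactivates methionine synthase, had peaks at −30 and 249 bp, and Odc1, which starts polyamine synthesis, at −222 and 251 bp. Both thus carried an upstream and a downstream peak. The centres lay 294 bp apart in Mtrr and 586 bp in Odc1, more than 1 shared start site would give, so the distances refer to different start sites. Azin1, an inhibitor of the protein that degrades Odc1, had one at −153 bp. Upp2, a uridine phosphorylase of liver, lay at 84 bp and Nmnat3, which makes NAD in mitochondria, at 148 bp. The sixth gene was Nampt.

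Ribosome biogenesis genes were 5 of 8, with 2 of 8 for common promoter peaks, and all 6 of their peaks lay within 202 bp of the start. They were Dcaf13 at 9 bp, a processing factor of ribosomal RNA, Rpp38 at 39 and 115 bp, Gnl3 at 57 bp, a nucleolar GTPase, Taf1c at 129 bp, a subunit of the selectivity factor of RNA polymerase I, and Utp11l at −202 bp, part of the small subunit processome. Vesicle traffic genes were 7 of 12, with 1 of 12 for common promoter peaks, and their 8 peaks lay at or upstream of the start except Vps8, a tethering subunit, at 4 bp. They included Rab3il1 at 0 bp, an exchange factor for Rab proteins, Rab2b at −47 bp, a Golgi GTPase, Sec24a at −58 bp, a cargo adaptor of COPII vesicles, Rab3gap2 at −126 bp and Rabgap1l at −195 bp.

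Ubiquitin genes were 6 of 20, near the share over all genes, with 2 of 20 for common promoter peaks, and their 7 peaks lay between 39 and 314 bp from the start in absolute distance. Usp36, a nucleolar deubiquitinase, had peaks at 39 and 182 bp whose centres lay 24275 bp apart, at different start sites, and Cul4b, a scaffold of ubiquitin ligases, had one at −43 bp. Ddb1, the adaptor of that scaffold, had one at 21 bp. Solute carriers were 11 of 31, and 3 of 31 for common promoter peaks, with a median absolute distance of 95.5 bp. Among them Slc38a4, an amino acid transporter of liver, had peaks at −118 and −936 bp, Slc5a6, a vitamin transporter, one at 73 bp, and Slc38a9, the lysosomal arginine sensor, one at −209 bp.

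Transcription factors were 5 of 27, and chromatin regulators 3 of 13, both under the share over all genes, and common promoter peaks stood at 4 of 27 and 2 of 13. Mafk, a small MAF protein, had peaks at 323 and 458 bp, and Nfe2, which binds DNA as its partner, had one at 23 bp. Nfix, a nuclear factor I protein, lay at −244 bp, Nr2f2, an orphan receptor, at 586 bp, and Esrra, a receptor that drives mitochondrial genes, at −285 and −604 bp. Hdac11 had its peak at 21 bp, Kdm4b, a histone demethylase, at −271 bp and Mllt1, a reader of acylated histones, at −279 bp. Of 4 Krüppel-like factor genes and of 4 mitochondrial respiration genes with a liver peak, 0 had a liver-only promoter peak, while 2 of 4 in each list had a common one. Of 4 genes of the fibroblast marker list 0 had either. Of 4 hepatocyte markers with a liver peak 1 did, Upp2.

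The remaining lists were small. Autophagy and lysosome genes were 3 of 6, with Lamp1, a lysosomal membrane protein, at 45 and 105 bp and Fnip1 at −241 bp. RNA processing genes were 3 of 7, with Hnrnph3 at −28 bp. Cell cycle genes were 4 of 12, with Mcm10, a replication factor, at −595 bp. Protein folding genes were 2 of 3, with P4hb, a protein disulphide isomerase, at −129 bp and Fkbp4, a cochaperone of steroid receptors, at 203 bp. Among proton pump subunits Atp6v1c1 lay at 26 bp (1 of 2), and among mitochondrial ribosome genes Mrpl48 at 277 bp (1 of 2). The ribosomal prefix list gave 2 of 4, of which Rps9 at 241 bp is a ribosomal protein and Rps6ka4 at −93 bp is a kinase. Translation factors by prefix gave 0 of 3. Common promoter peaks stood at 3 of the 6 autophagy and lysosome genes, 1 of the 7 RNA processing genes, 4 of the 12 cell cycle genes and 2 of the 3 translation factors.

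**Figure D2:**
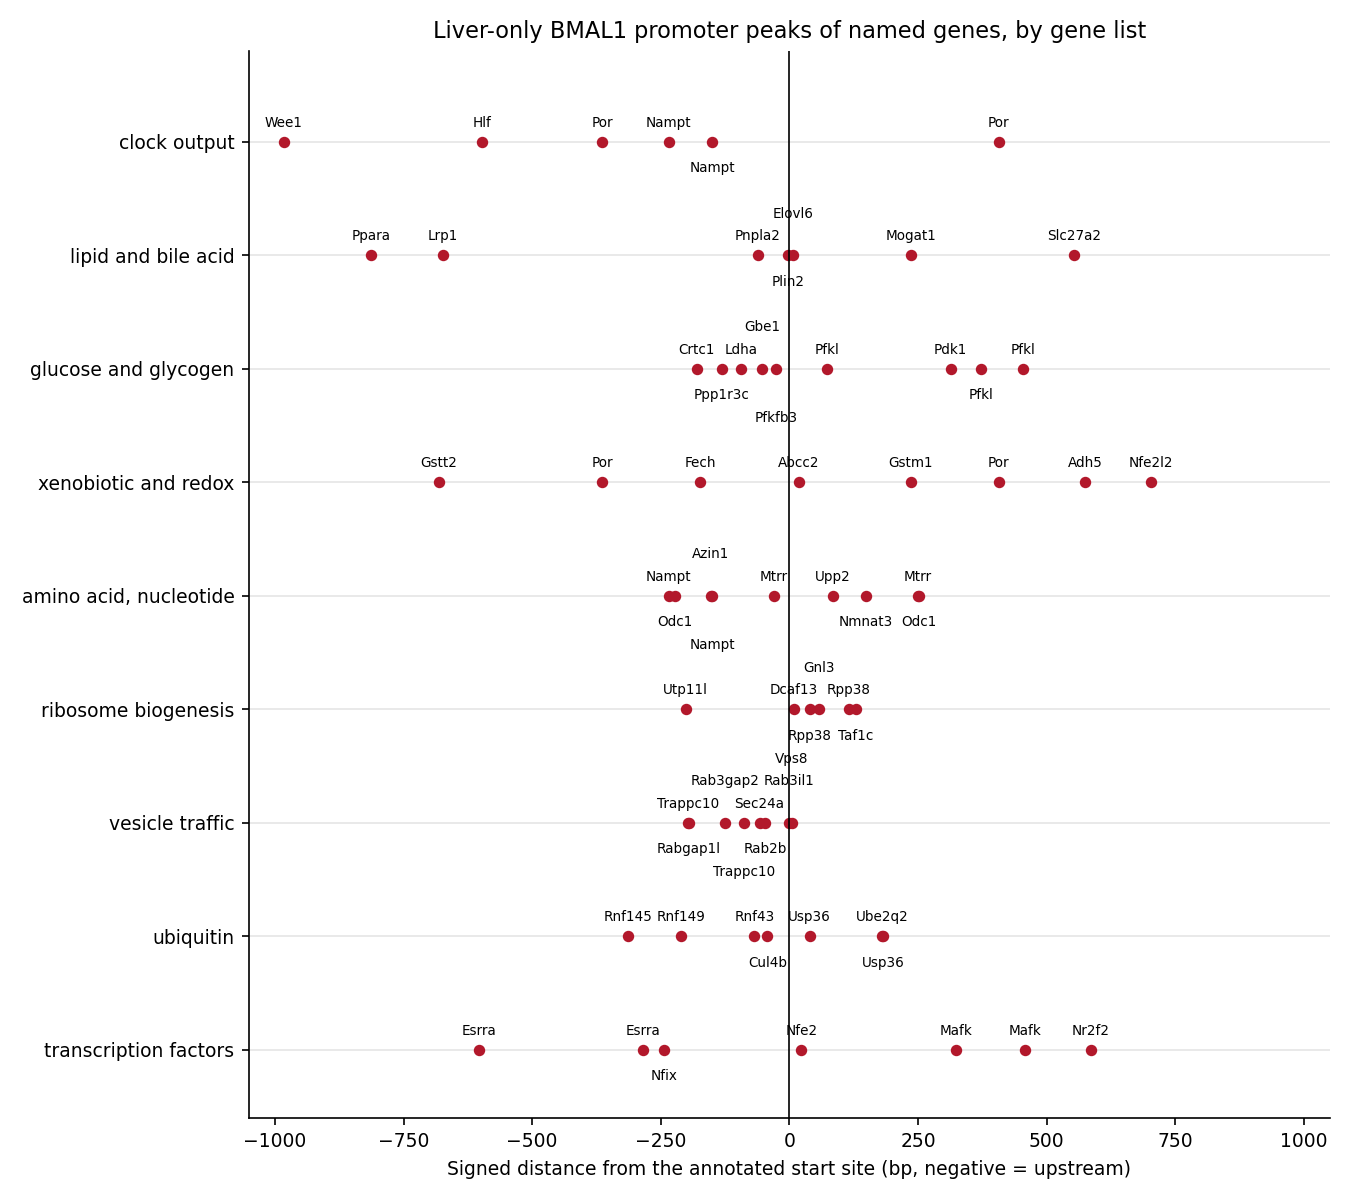
Signed distance (bp) from the annotated start site of liver-only promoter peaks of the genes named, in rows by gene list, with each point 1 peak labelled by its gene. Vesicle traffic and ribosome biogenesis peaks stay within 202 bp of the start, and clock output and xenobiotic peaks spread over most of the window.

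A single microRNA gene, Mir203, carried a liver-only promoter peak, at 287 bp (chr12:113369354-113369403). The labels do not say whether the annotated start is that of the longer transcript the microRNA is cut from. The peak is therefore not shown to lie at the promoter of that transcript. Its mature sequences are given with the seed, bases 2 to 8, in capitals, since the seed defines the targets a microRNA can pair with, and the arms have different seeds.
mmu-miR-203-5p: aGUGGUUCuugacaguucaaca
mmu-miR-203-3p: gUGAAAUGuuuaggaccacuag

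CLOCK peaks were almost absent at the liver-only promoter peaks. A liver CLOCK peak centre lay within 500 bp of 1 of 340 liver-only promoter peaks (0.294%, 95% Clopper-Pearson interval 0.00745 to 1.63), against 29 of 220 common promoter peaks (13.2%, 9.01 to 18.4). The odds ratio was 0.0195 (4.7434e-04 to 0.120, two-sided Fisher exact test, p adjusted over 4 tests = 2.03e-11). Many of the common peaks with CLOCK belonged to clock genes: without core clock and clock output genes the counts were 0 of 333 and 9 of 192. Over all 1254 liver BMAL1 peaks 4.31% had a liver CLOCK peak that near. Widening the limit to 10000 bp added 3 peaks, among them Nfe2 at 1924 bp and Fnip1 at 5632 bp. Among liver-only peaks beyond 1 kb 14 of 651 (2.15%) had a liver CLOCK peak, for an odds ratio of 0.134 (0.00317 to 0.890, adjusted Fisher exact p = 0.0343). With promoters limited to 200 bp, the reference became all liver-only peaks beyond 200 bp. There 0 of 193 against 15 of 798 had one, and the second call was lost (adjusted Fisher exact p = 0.0703).

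NIH3T3 CLOCK peaks gave the same order against common promoter peaks. They lay within 500 bp of 4 of 340 liver-only promoter peaks (1.18%, 0.321 to 2.98) and of 58 of 220 common promoter peaks (26.4%), with an odds ratio of 0.0334 (0.00866 to 0.0926, adjusted Fisher exact p = 7.68e-21). The share over all liver BMAL1 peaks was 6.54%. Against 5 of 651 liver-only peaks beyond 1 kb (0.768%) the odds ratio was 1.54, with an interval from 0.303 to 7.19 (adjusted Fisher exact p = 0.502), so neither a lower nor a higher share was detectable. The 4 peaks were those of Usp36, 7 bp from the CLOCK centre, Rpp38 with both of its peaks, at 29 and 47 bp, and Wee1 at 233 bp. At Usp36 and Rpp38 no NIH3T3 BMAL1 peak centre lay within 500 bp of these liver-only peaks, whereas at Wee1 a common peak lay 78 bp away, so that the CLOCK peak there stands at a promoter with BMAL1 in both lists. Common peaks are by definition also in the NIH3T3 BMAL1 list, so the classes are not independent of binding in fibroblasts. The NIH3T3 CLOCK contrast with common peaks is therefore no separate support. The number of CLOCK peaks listed in liver, 439 from 1 pooled sample, limits how many BMAL1 peaks can have a partner, and whether peak strength moves with these shares was not tested, since the lists give no height.

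**Figure D3:**
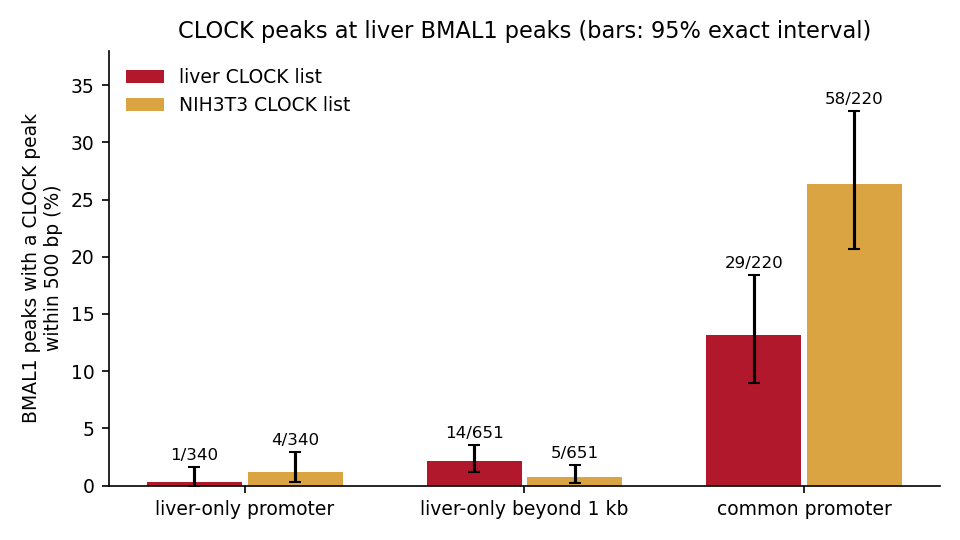
Share (%) of liver BMAL1 peaks with a CLOCK peak centre within 500 bp, by class, for the liver CLOCK list and the NIH3T3 CLOCK list, with counts above the bars and 95% exact intervals. Liver-only promoter peaks stand at 1 and 4 of 340, and common promoter peaks at 29 and 58 of 220.

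The promoter windows of the genes were searched for motifs on both strands. The canonical E-box CACGTG stood in 92 of 330 windows of 249 genes with a liver-only promoter peak (27.9%, 95% interval 23.1 to 33.1). It stood in 39 of 493 windows (7.91%) of genes with a liver-only peak beyond 1 kb and in 78 of 159 windows (49.1%, 41.1 to 57.1) of genes with a common promoter peak. Over all 32851 RefSeq windows the share was 7.15%. The share for liver-only promoter genes was above that of all windows and below that of common promoter genes, with intervals that do not overlap, and distal liver-only genes were close to all windows. Windows of the same gene are not independent, so these intervals cover counting error alone, and the difference was not tested. The classes share genes, 14 with the distal class and 11 with the common class. At least 2 matches stood in 13 liver-only windows and in 33 of the 159 common windows.

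The wider form CACGNG, which contains CACGTG and CACGCG, stood in 59.1% of liver-only promoter windows, 34.3% of distal ones, 80.5% of common ones and 27.5% of all. CACGCG alone stood in 27.6%, 15.8%, 31.4% and 9.27% in the same order. The E-box variant CATGTG stood in 11.5%, 11.0%, 11.9% and 14.2%, and CACGTT in 8.79%, 5.68%, 7.55% and 4.68%. Base composition moved with the classes: the median GC content was 62.0%, 60.3%, 65.0% and 52.7%, and the median ratio of observed to expected CpG 0.738, 0.669, 0.827 and 0.384. Among windows with a CpG ratio above 0.6, CACGTG stood in 77 of 219 (35.2%), 31 of 273 (11.4%), 69 of 130 (53.1%) and 1323 of 11756 (11.3%), so liver-only promoter windows again lay between common ones and all windows. Palindromes with the same letters in another order, GACGTC and GCATGC, stood in 6.97% and 8.79% of liver-only promoter windows and in 4.40% and 7.93% of all windows.

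Other promoter motifs were counted in the same windows. The GC box GGGCGG, the site of SP1-type factors, stood in 62.4% of liver-only promoter windows, 57.0% of distal, 72.3% of common and 35.7% of all windows. CCAAT, bound by NF-Y, stood in 33.9%, 34.7%, 44.7% and 37.4%. CCGGAAG, an ETS-type site, stood in 13.3%, 6.29%, 14.5% and 8.86%. The D-box TTATGTAA, bound by Hlf and its relatives, stood in 2.12%, 1.01%, 1.89% and 0.938%, from 7 liver-only promoter windows.

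E-box content was lowest where the peak lay far from the start. Where the liver-only peak lay within 50 bp of the start, 37.6% of windows had CACGTG, against 58.9% for common peaks there. From 51 to 100 bp the shares were 31.0% and 57.1%, from 101 to 200 bp 35.1% and 59.0%, and from 201 to 500 bp 25.3% and 40.8%. From 501 to 1000 bp, where most of the window is far from the peak, they were 11.9% and 10.0%, with 61 liver-only and 16 common peaks. By width, 28.0% of windows of liver-only peaks of 50 bp and 27.9% of those of wider ones held the motif. In each bin up to 500 bp the liver-only share was below the common one, though the intervals within a bin overlap.

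**Figure D4:**
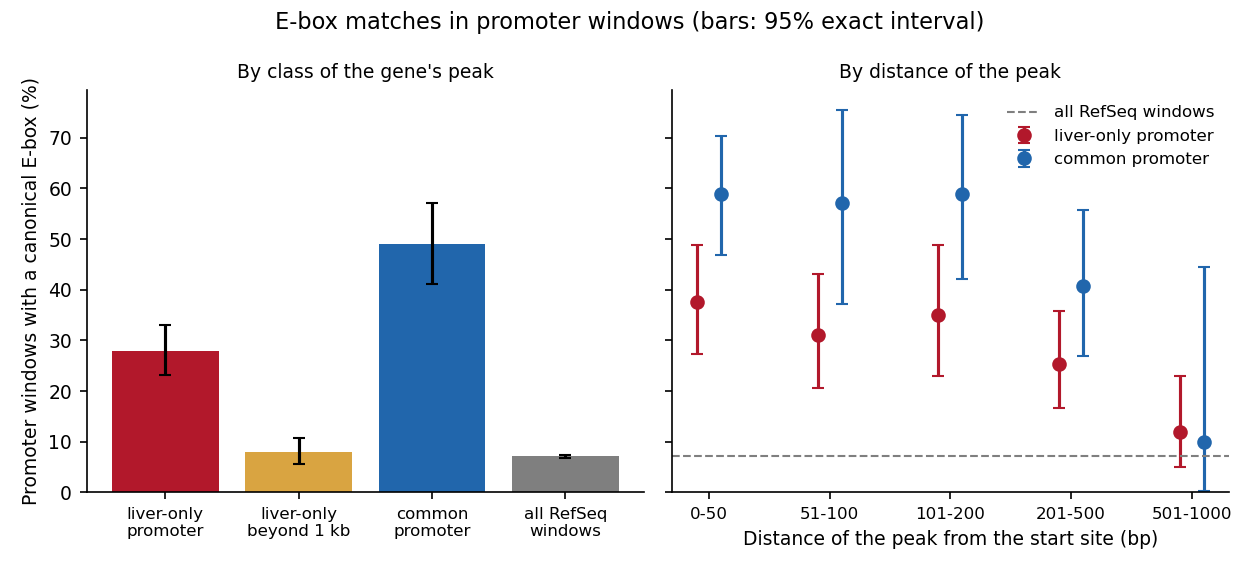
Share (%) of RefSeq promoter windows with the canonical E-box, left by class of the gene's peak and right by distance of the peak from the start site (bp), with 95% exact intervals. Liver-only promoter genes (27.9%) lie between common promoter genes (49.1%) and all windows (7.15%). Both classes drop beyond 500 bp, where no peak lies inside the window.

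Where a gene had 1 window and the peak centre lay inside it by at least 25 bases, the match was placed against the peak. Peaks centred nearer to a window end, such as that of Rpp38 at 39 bp, were left out. Of 98 such liver-only peaks 44 (44.9%) had CACGTG in the window, with a median gap of 31 bp between match and peak centre (quartiles 9 and 76 bp, largest 192 bp). Of 83 common peaks 58 (69.9%) had one, with a median gap of 18.5 bp. Within 10, 25 and 50 bp lay 12, 20 and 31 of the 44 liver-only matches, and 14, 36 and 48 of the 58 common matches. The 12 nearest were those of Trappc10, H47, Plin2, Arsa, D2Ertd750e, Cdk18, Tmem222, Xpot, Eps15l1, Slc25a33, Max and 1190007I07Rik, and the most distant was that of Pgm2l1. Of the 54 liver-only peaks without CACGTG 37 had CACGNG in the window, 27 of them within 50 bp, against 22 of 25 common peaks, 18 of them within 50 bp.

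**Figure D5:**
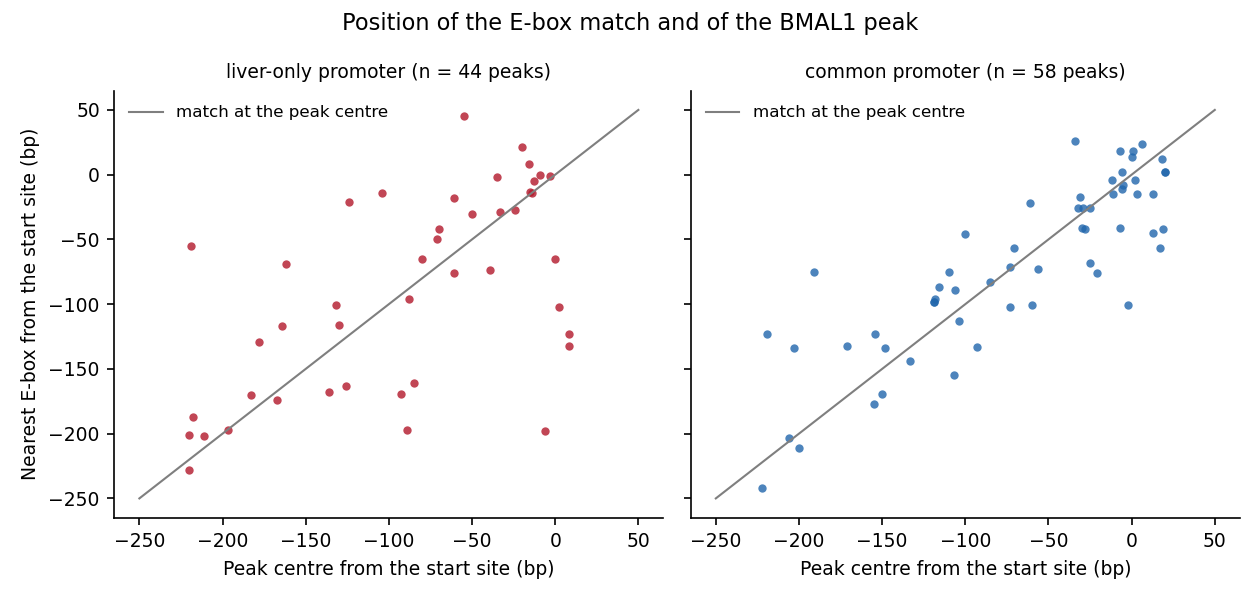
Position of the nearest canonical E-box (bp from the start site) against that of the BMAL1 peak centre, left for 44 liver-only and right for 58 common promoter peaks of genes with 1 window. Points on the grey line have the match at the peak centre. Within 25 bp of the centre lay 20 liver-only and 36 common matches, and within 50 bp 31 and 48.

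Most genes had a single peak. Of the 309 genes, 279 had 1 liver-only promoter peak, 29 had 2 and 1, Pfkl, had 3. Of the 31 gaps between neighbouring peaks of a gene 19 were under 200 bp, with a median of 117 bp and a smallest gap of 52 bp, in 1600020E01Rik and Aimp2. No other BMAL1 peak, in either list, was assigned to 248 of the genes. A common peak was assigned to 15 genes, and a further liver-only peak beyond 1 kb to 18. A peak of the NIH3T3 list alone was assigned to 5: Fkbp11, Hlf, Osbpl1a, P2ry2 and Wee1.

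Some liver-only entries stood beside a peak that both lists held. A common peak centre lay within 500 bp of 10 of the 340 (2.94%), and in each it was the nearest NIH3T3 BMAL1 peak. They included those of Wee1 (78 bp away), Bmp2k (106 bp), 1600020E01Rik (201 and 253 bp), Ppm1a (276.5 bp), Gm11491 (296.5 bp), Abcf1 (317.5 bp), Hps5 (340 bp) and Hoga1 (422 bp). Hlf had no such neighbour: the centre of its liver-only peak, at −598 bp, lay 8415.5 bp from a peak of the NIH3T3 list alone at −31 bp. These distances therefore refer to different start sites. The single common peak of Hlf, at −27255 bp, lay 35639.5 bp from the liver-only peak. In Wee1 a liver-only peak at −983 bp, common peaks at −905 and −708 bp and an NIH3T3 peak at −332 bp stood in 1 upstream stretch. In Pfkfb3 the liver-only peak lay at −26 bp and a common peak at −33419 bp.

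The gene named for a peak is not always the only one that starts there. Of 249 genes with a window, 41 (16.5%, 12.1 to 21.7) had a neighbour starting in the opposite direction within 1000 bp, against 44 of 359 distal genes (12.3%), 23 of 125 common promoter genes (18.4%) and 12.3% of all 27025 genes. The intervals overlap. Examples are Mtrr with Fastkd3, Aimp2 with Pms2, a mismatch repair gene, Cbx5 with Hnrnpa1, and Gm17597 with Tef, a D-box factor. Gnl3 and Pbrm1 face each other and both had a liver-only promoter peak. These peaks, at chr14:31832181-31832256 and chr14:31835917-31835966, lay more than 1 kb apart, so they do not mark 1 shared promoter. Of 309 symbols 297 matched a RefSeq gene, of which 282 are protein coding, 13 are long non-coding RNAs, 1 is a pseudogene and 1 is Mir203.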

How the data were processed

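ChIP-seq peak lists were used, 1 each for BMAL1 and CLOCK in liver and NIH3T3 cells. Per the submitters' processing notes, Bowtie, SAMtools, bedtools and mm9 were named, without roles. The peak caller, its thresholds and whether libraries were pooled for the calls are not given in the labels. Each deposited list holds positions, and those of BMAL1 also the gene the authors assigned and a signed distance to its start. The BMAL1 lists open with the same 263 entries, and how they were assembled is not stated. Starts are printed counting from 1.

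Distances between peaks were taken between centres, shares have 95% Clopper-Pearson intervals, and classes were tested by two-sided Fisher exact tests (SciPy 1.17.1, Python 3.11.15), with Benjamini-Hochberg adjustment over the 4 CLOCK tests. Procedures were tested on simulated data. Motifs were searched in RefSeq windows of GRCm38.p6, matched by symbol, never by coordinates, and the table holds no window of chromosome 18. Named genes were list members, peaks near CLOCK or near NIH3T3 BMAL1, genes with 3 peaks, those nearest to the start and those about the 1000 bp limit; the 12 genes with the nearest E-box, the facing gene pairs and the comparison palindromes were chosen after their values were seen. Members and the 27 gene lists were chosen with earlier results of these data known. Expression and polymerase libraries, and peak sequences in mm9, were not used here, and results on some named genes are not reported here.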

Additional observations from a re-analysis of the deposited data

How the results depend on the processing

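The lower share of CLOCK at liver-only than at common promoter peaks passed the threshold under all 8 alternatives run for each CLOCK list (CLOCK limits of 200 and 1000 bp, overlap by 1 bp, promoters of 200 and 500 bp, liver-only by no NIH3T3 peak within 500 bp, joined loci, no clock genes), with adjusted Fisher exact p at most 2.0730e-04 in liver and 3.5649e-09 in NIH3T3. Leaving out clock genes left 0 of 333 against 9 of 192 for liver CLOCK. For NIH3T3 CLOCK each alternative still divides the peaks by NIH3T3 BMAL1, so passing there is not independent support. The second reference was liver-only peaks beyond the promoter limit, which is 1 kb except where promoters of 200 or 500 bp were used. Against it, liver CLOCK passed in 7 of 8. With promoters of 200 bp, so against liver-only peaks beyond 200 bp, the odds ratio was 0 (adjusted Fisher exact p = 0.0703). NIH3T3 CLOCK passed in 0 of 8, with odds ratios of 1.16 to 2.89. The upstream odds ratio was 0.472 to 0.694 over 5 alternatives and missed the threshold for joined loci (0.694, Fisher exact p = 0.0852). With promoters of 200 bp there were 193 peaks in place of 340. The CACGTG share was 27.2% to 37.7% over 5 alternatives, the highest with peaks inside the window, and 32.3% for genes with 1 window, an alternative chosen after seeing the data. No paired analysis was possible because the peak lists hold no values per library. Depth and enrichment per peak are unknown, so a peak missing from a list cannot be told apart from one below its threshold.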
